A study of Gallus gallus with 8 samples.

Results

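The albumin family of serum carriers was followed through early development of the chicken yolk sac endoderm. Probe sets were chosen by gene symbol, for genes picked with earlier results of these data known. They are those that the probe annotation of the Affymetrix Chicken Genome Array assigns to AFP, ALB or GC. These are 3 of the 13009 gene symbols on the array and 4 of its 38535 probe sets: 2 for AFP, an _s_at and an _at probe set, and 1 each for ALB and GC. The study took yolk sac endoderm on embryonic days 1, 2, 3 and 4, with 2 arrays a day, and asked how its expression profile develops over that time. Each sample was a pool gathered at 4-hour intervals within its day, so an array averages over a day of development. No strain, sex or treatment is given in the labels. All eggs were incubated at 38 °C, and in all groups dispase was used to peel the endoderm away from the mesoderm. The labels call the 2 samples of a day independent but do not say whether their eggs were collected separately, so the p-values below measure the spread between such pools.

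Albumin, encoded by ALB, is the main protein of adult blood plasma and carries fatty acids and other ligands. Alpha-fetoprotein, encoded by AFP, is its relative in fetal plasma, made in mammals by the yolk sac endoderm and the fetal liver and largely replaced by albumin after birth. The vitamin D binding protein, encoded by GC, carries vitamin D metabolites and binds actin released from damaged cells. The 3 genes arose by duplication and encode secreted proteins folded around many disulfide bonds. In the chicken the yolk sac endoderm absorbs and digests yolk and secretes serum proteins into the embryo's circulation before the liver is formed.

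The arrays had not been brought to a common level. Their trimmed mean signals lay between 76.3 and 170 arbitrary units, highest on the day 1 replicate 2 array. Over the 23063 probe sets that were tested, the median change against day 1 was -0.42 for day 2, -0.43 for day 3 and -0.55 for day 4 on the log2 scale. Results are given on the deposited values, with calls and counts also after quantile normalization, which puts all arrays on the same distribution. Each of 16 endoderm markers exceeded 9.96 units, the mean signal required for testing, on at least 1 array. That limit lies under the median signal of every array (11.83 to 26.04), so passing it does not show expression. The summed signal of the 16 was between 38981 and 49765 on all 8 arrays. TTR, APOA1 and APOB made up most of that sum, and single markers moved in both directions. On day 4 against day 1 CUBN, AMN and EPCAM rose and SOX17 and GATA5 fell as deposited. After quantile normalization 7 of the 16 rose, the same 3 with HNF4A, GATA6, APOB and LRP2, and only GATA5 fell. Over all probe sets 3.43% rose and 27.5% fell on day 4, or 10.6% and 12.3% after quantile normalization. GATA5 gave 54.1 and 99.3 units on day 4, against 2001.5 and 3426.5 on day 1. Mesoderm markers (20 genes, among them COL1A1, COL3A1 and LUM) set 2 arrays apart: they summed to 17530 on day 2 replicate 1 against 656 on replicate 2, and to 6804 on day 3 replicate 1 against 658 on replicate 2. They summed to 701 and 607.5 on day 4, and to 3260 and 6296 on day 1. Endothelial markers (16) summed to between 1247 and 4269 units, with EMCN low on all arrays, leukocyte markers (9) to between 244 and 460.5, and ectoderm and neural markers (10) to at most 264 after day 1, against 772 and 2599 on day 1. Actin control signal from the 3′ end over that from the 5′ end, a measure of RNA integrity, ranged from 1.5 to 4.3.

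All 3 genes were higher on days 2, 3 and 4 than on day 1. Both AFP probe sets stood near background on day 1 and among the brightest on the array on every later day. GC was above the signal limit on both day 1 arrays and, on the log2 scale, had most of its increase by day 2. ALB was low on day 1, moderate on day 2, and had its highest signals on day 3 and on 1 of the 2 arrays of day 4. The 2 arrays of day 4 differed in all 4 probe sets, with replicate 1 the higher.

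**Figure D1:**
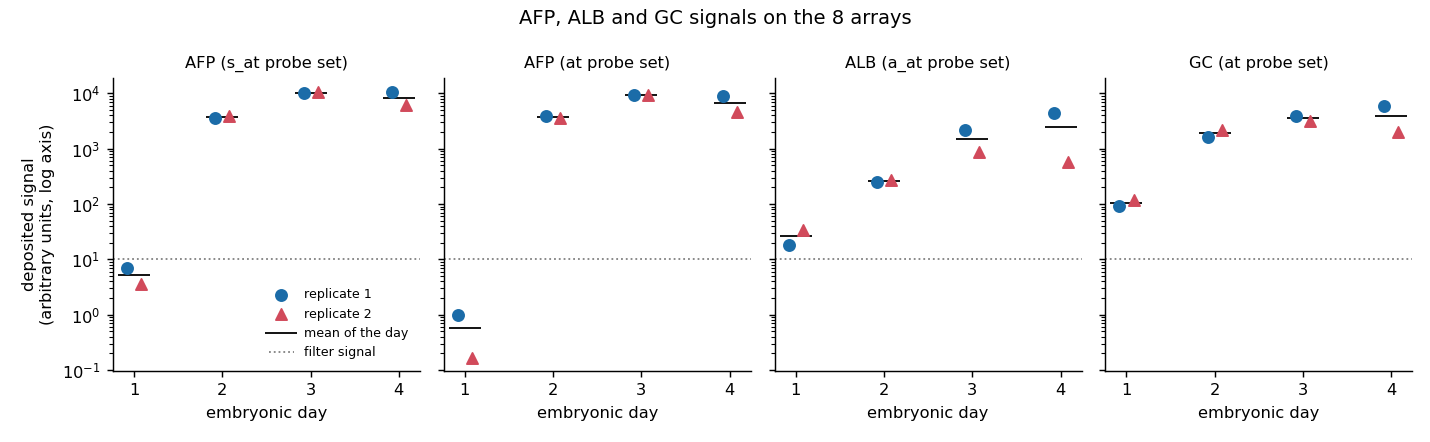
Deposited signal in arbitrary units (log axis) of the 4 probe sets on each of the 8 arrays, by embryonic day. Points are single arrays. The AFP probe sets lie under 10 on both day 1 arrays and at 3588 or more on every later array, while the day 4 points of ALB lie far apart, at 4366 and 565.

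AFP was measured by 2 probe sets. The _s_at probe set, with the higher mean signal, gave 6.89 and 3.59 units for the day 1 arrays, 3637 and 3903 for those of day 2, 9978.5 and 10688 for day 3 and 10448 and 6191 for day 4. This suffix marks a probe set whose probes match more than a single transcript. No array of day 1 overlapped with any later array, and both arrays of day 3 were above both of day 2. Of the day 4 pair 1 array lay within the range of day 3 and 1 well below it. With 2 arrays a day such an order is not a test, here or for the other members. The share of all probe sets without overlap is not given. After quantile normalization day 4 replicate 1, at 10594.5, was above the 9909.8 and 9991.1 of day 3. The number of probe sets with a higher signal on the same array was 25786 and 31844 for the day 1 arrays, 305 and 272 for those of day 2, 11 and 10 for day 3 and 5 and 109 for day 4.

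The day means were 5.24 ± 2.33, 3770 ± 188, 10333 ± 501 and 8320 ± 3010.0 units (SD, n = 2 arrays for each of the 4 days). The day 1 mean was under the signal limit for testing, so no fold change of the signal is given. On the scale of log2(signal + 16), where the added 16 units understate changes from a low signal, AFP rose on day 2 against day 1 by 7.48 ± 0.30 (SE, limma, adjusted p = 1.9e-08). On day 3 against day 1 it rose by 8.93 (limma, adjusted p = 2.5e-09) and on day 4 by 8.57 (adjusted p = 4.7e-09).

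The _at probe set of AFP was designed for a single transcript. It gave 1.00 and 0.169 units for the day 1 arrays, 3941 and 3588 for those of day 2, 9145 and 9497 for day 3 and 8872 and 4645 for day 4. The pattern was that of the first probe set: no overlap of day 1 with any later day, and a day 4 pair of which replicate 2 was far below day 3. Here both day 4 arrays were under both day 3 arrays as deposited, but after quantile normalization day 4 replicate 1, at 9191.5, lay between the 9241.7 and 9078.4 of day 3. Its day means were 0.585 ± 0.588, 3764 ± 250, 9321 ± 249 and 6759 ± 2989 units (SD, n = 2 each), and its increases against day 1, at 7.83 ± 0.32 on day 2, 9.14 on day 3 and 8.60 on day 4, all passed (limma, largest adjusted p = 1.9e-08). Since day 1 was under the signal limit, the added 16 units set the size of these AFP values, and with 64 units added the order of the 2 probe sets turned on days 3 and 4.

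The 2 AFP probe sets were compared only by how their ratio moved, since levels of different probe sets are not on the same scale. The ratio of the signal of the first to the second was 0.923 and 1.09 for the day 2 arrays, 1.09 and 1.13 for day 3 and 1.18 and 1.33 for day 4. It was 6.88 and 21.3 on day 1, where both signals were close to 0. Over the 8 arrays their log2 signals correlated with r = 0.999, a value that describes mainly the step from day 1 to the later days. AFP came close to the top of the measured range: the first probe set reached 87.4% and 89.4% of the highest signal of its array on day 3 and 91.4% on day 4 replicate 1, and whether the signal still followed the amount of RNA there was not tested.

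GC encodes the vitamin D binding protein. Its signal was 91.6 and 119 units for the day 1 arrays, 1653 and 2167 for those of day 2, 3973 and 3204 for day 3 and 5822 and 1963 for day 4. Day 1 did not overlap with any later day and day 3 lay above day 2, while the day 4 arrays fell on either side of day 3 and 1 of them lay between the day 2 arrays. The day means were 105 ± 19.3, 1910 ± 363, 3589 ± 544 and 3893 ± 2728 units (SD, n = 2 each), so day 2 reached 49.1% of the highest day mean.

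GC rose against day 1 by 3.99 ± 0.42 on the log2 scale on day 2 (SE, limma, adjusted p = 0.00018), by 4.89 on day 3 (adjusted p = 1.4e-05) and by 4.82 on day 4 (adjusted p = 2.4e-05). As ratios of mean signals these were 18.1, 34.1 and 37 times the day 1 level, or 26.3, 46.6 and 57 times after quantile normalization. Its day 4 value moved with the array used: it was 4.04 without day 4 replicate 1 and 5.60 without day 4 replicate 2.

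ALB encodes albumin. Its signal was 18.4 and 34.1 units for the day 1 arrays, 245 and 271 for those of day 2, 2153 and 874 for day 3 and 4366 and 565 for day 4. The arrays of days 1, 2 and 3 did not overlap, and the 2 arrays of day 4 enclosed both arrays of day 3. The difference between days 2 and 3 did not pass in limma (adjusted p = 0.5). The day means were 26.3 ± 11.1, 258 ± 18.6, 1513 ± 905 and 2465 ± 2687 units (SD, n = 2 each). On day 2 ALB had thus reached 10.5% of its highest day mean, compared with 49.1% for GC and 36.5% and 40.4% for the AFP probe sets; these percentages are each relative to the probe set's own highest day. The value for ALB rests on the day 4 arrays: it was 17.1% without day 4 replicate 1, when day 3 was highest, and 5.91% without day 4 replicate 2. The same omissions gave 53.2% and 32.8% for GC.

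ALB rose by 2.72 ± 0.70 on the log2 scale on day 2 against day 1 (SE, limma, adjusted p = 0.042), a 9.83-fold higher mean signal. This was the weakest of the calls: after quantile normalization the change was 3.03 with adjusted p = 0.053 in limma. Without day 1 replicate 1 or day 1 replicate 2 it was 2.45 or 2.99, and the call was lost. The SE of 0.70 is pooled over the 4 days, and the SD of the log2 signal of ALB was 0.38, 0.10, 0.91 and 2.06 on days 1, 2, 3 and 4. In a fit of days 1 and 2 only, the change was 2.72 ± 0.55 and kept the call. With all arrays ALB rose on day 3 by 5.06 (adjusted p = 0.00047) and on day 4 by 5.26 (adjusted p = 0.00047), 57.6 and 93.9 times the mean signal of day 1. The day 3 value was 4.42 without day 3 replicate 1 and 5.71 without day 3 replicate 2. The day 4 value was 3.81 without day 4 replicate 1 and 6.72 without day 4 replicate 2.

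Across the family, 4 of 4 probe sets rose on each of days 2, 3 and 4 against day 1, where 1.61%, 5.29% and 3.43% of all probe sets tested rose. After quantile normalization 3, 4 and 4 of the 4 rose, against 3.74%, 12.1% and 10.6% of all. All 4 passed the F-test for any difference among the days (F = 398.6 and 361.4 for AFP, 24.7 for ALB and 61.6 for GC, largest adjusted p = 0.00099), which 20.8% of all probe sets passed, or 17.3% after quantile normalization. Without day 1 replicate 2 ALB no longer passed it (adjusted p = 0.08). Day 2 replicate 1 and day 3 replicate 1 had more mesoderm transcripts than the other array of their day. Without day 2 replicate 1 the day 2 changes were 7.53 and 7.76 for AFP, 2.79 for ALB and 4.18 for GC. Without day 3 replicate 1 the day 3 changes were 8.98 and 9.16 for AFP and 4.42 for ALB. For GC the day 3 change was between 4.73 and 5.06 with each array left out in turn. The part of mesoderm transcripts in these changes was not tested. The day 1 arrays, with mesoderm sums of 3260 and 6296, are in all 3 comparisons. The 3 comparisons share the day 1 arrays, so their calls are not independent of each other. In these bulk samples a larger share of cells that express a gene and more RNA per cell cannot be told apart.

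**Figure D2:**
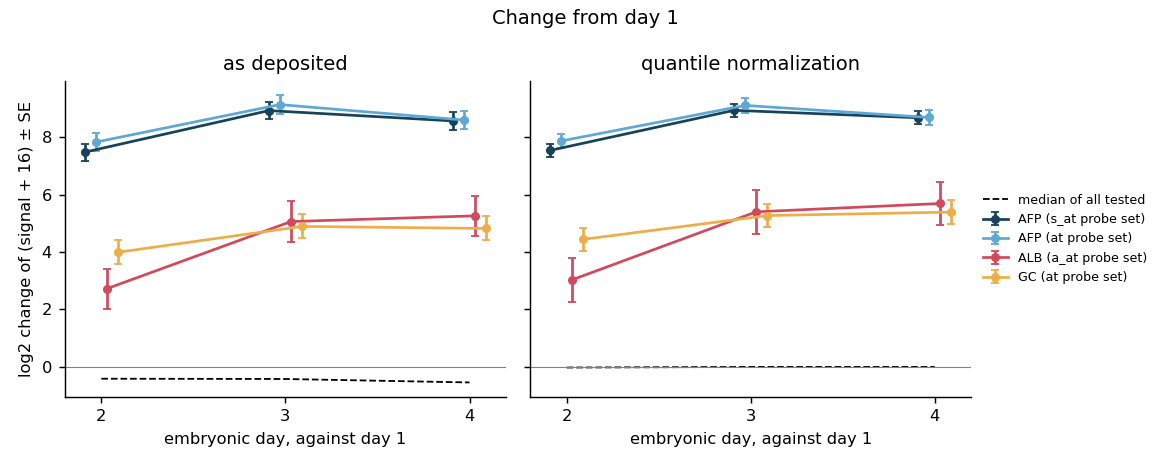
Change on the scale of log2(signal + 16), with its standard error, of each probe set on days 2, 3 and 4 against day 1, as deposited and after quantile normalization. The AFP probe sets lie between 7.48 and 9.14 throughout, and ALB lies lowest on day 2 at 2.72.

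Between days 2, 3 and 4 no member passed the test. On day 3 against day 2 both AFP probe sets, ALB and GC were higher by 1.45, 1.31, 2.34 and 0.91 on the log2 scale, or 2.74, 2.48, 5.86 and 1.88 times the mean signal. Their unadjusted limma p-values were 0.00028, 0.0012, 0.0051 and 0.048, and the adjusted values were 0.35, 0.45, 0.5 and 0.69. In this comparison limma called 0 of 23063 probe sets, with 1663 at an unadjusted p under 0.05, and after quantile normalization it also called 0, with 2929 under 0.05. Without day 2 replicate 2, the array of that day with few mesoderm transcripts, the difference was 1.5 for the _s_at probe set of AFP and 2.41 for ALB. Day 2 then rests on 1 array, the one with more mesoderm transcripts, so no call is given for that fit.

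On day 4 against day 2 the differences were 1.09 and 0.77 for AFP, 2.54 for ALB and 0.83 for GC (adjusted p of 0.28 or more in limma), and the GC arrays of the 2 days overlapped. Of all probe sets 1 rose and 2 fell, none of them a member. The ALB difference was 2.61 without day 2 replicate 2, 4.00 without day 4 replicate 2 and 1.09 without day 4 replicate 1. With each array left out in turn the difference ranged from 0.05 to 1.61 for GC, from 0.71 to 1.47 for the _s_at and from 0.3 to 1.23 for the _at probe set of AFP.

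On day 4 against day 3 the differences were -0.36 and -0.54 for AFP, 0.20 for ALB and -0.08 for GC, all with adjusted p = 1 in limma, which called 0 of 23063 probe sets, with 915 at an unadjusted p under 0.05. The sign of the GC difference turned after quantile normalization, to 0.12. With day 4 arrays on both sides of the day 3 arrays, an order of days 3 and 4 could not be read for ALB or GC.

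The replicates of day 4 differed more in these genes than in most others. Day 4 replicate 1 was 1.69 and 1.91 times as high as replicate 2 in the AFP probe sets, 7.73 times in ALB and 2.97 times in GC. The same ratios after quantile normalization were 1.61, 1.82, 6.87 and 2.77. On the log2 scale the gaps of 0.75, 0.93, 2.91 and 1.56 were larger than those of 88.2%, 93.5%, 99.9% and 98.7% of all probe sets tested, whose median difference between the 2 arrays was -0.06. ALB also differed on day 3, where replicate 1 was 2.46 times replicate 2, a gap larger than that of 98.3% of probe sets, while GC differed by 1.24 times and the AFP probe sets were slightly lower on replicate 1. On day 2 the gaps of the 4 probe sets, replicate 1 minus replicate 2, were -0.10 and 0.13 for AFP, -0.14 for ALB and -0.39 for GC.

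Other genes also differed between the day 4 arrays. All 10 erythroid markers tested were higher on replicate 1, by a median of 0.70 on the log2 scale, and their summed signal over the 11 on the array was 23968 on replicate 1 and 13767 on replicate 2. Of 16 other serum carriers tested, 11 were higher on replicate 1, with a median of 0.29 and a range from -2.70 to 1.80. Mesoderm markers, at 701 and 607.5 units in sum, were low on both. The 3′ to 5′ actin ratio was 4.3 on replicate 1, the highest of all arrays, and 3.22 on replicate 2. On day 3, where ALB and GC were higher on replicate 1, 19 of 19 mesoderm markers tested were so too, by a median of 0.84. On day 2 the same 19 were higher on replicate 1, by a median of 2.22, while ALB (-0.14) and GC (-0.39) were lower there. Over all probe sets tested the median of replicate 1 minus replicate 2 was 0.18 on day 2, 0.00 on day 3 and -0.06 on day 4. The part of red cell or mesoderm transcripts and of RNA quality in these gaps was not tested.

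**Figure D3:**
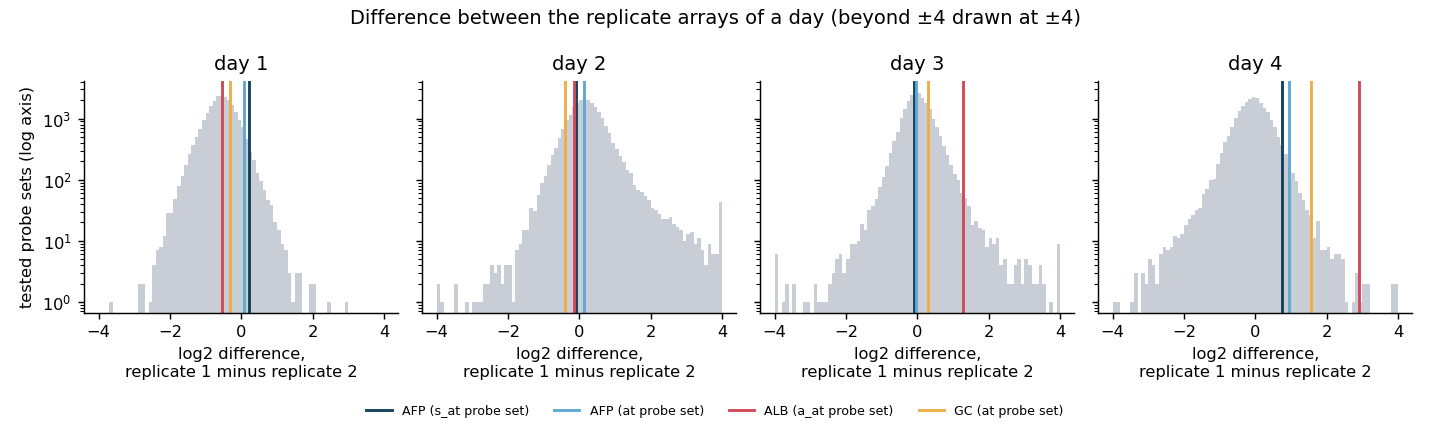
Distribution over the 23063 probe sets tested of the log2 signal of replicate 1 minus that of replicate 2, 1 panel a day, with vertical lines for the 4 probe sets. On day 4 all 4 lines lie to the right of the centre, with ALB at 2.91.

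The members were also compared with each other within arrays, using the brighter AFP probe set. Because probe sets differ in scale, only the movement of a difference over the days can be read, not its size. The log2 difference of ALB minus AFP was 0.59 and 1.36 for the day 1 arrays, -3.81 and -3.77 for those of day 2, -2.20 and -3.59 for day 3 and -1.26 and -3.42 for day 4. AFP was under the signal limit on day 1, so the day 1 values of this difference and of the next depend on the added 16 units. Over days 2 to 4 the difference was highest on day 4 replicate 1. The difference of AFP minus GC was between 0.84 and 1.73 on all arrays of days 2 to 4, and -2.23 and -2.78 on day 1. The difference of ALB minus GC was -1.64 and -1.43 for the day 1 arrays, -2.68 and -2.92 for those of day 2, -0.88 and -1.86 for day 3 and -0.41 and -1.77 for day 4, with the lowest values on both day 2 arrays.

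An exact permutation test of whether such a difference varies over the days, over the 105 ways to split 8 arrays into 4 pairs, gave p = 0.0381 for ALB minus AFP, 0.19 for ALB minus GC and 0.0667 for AFP minus GC. Adjusted over the 3 pairs these were 0.1, 0.19 and 0.1, so none passed; the smallest p this design allows is 0.00952. Over days 2 to 4 alone, where the smallest possible p is 0.0667, the exact values were 0.267, 0.267 and 0.467. As a description over the 8 arrays, AFP and GC correlated with r = 0.986, ALB and GC with 0.940, and AFP and ALB with 0.892, all of which share the low day 1 arrays.

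Among 4839 other genes with a day-to-day span of at least 1 log2 unit, those most like AFP over the 8 arrays were SERPIND1, which encodes heparin cofactor II (r = 0.996), RBP, gene ID 396449 (0.995), NUDT5, a nucleotide sugar hydrolase (0.993), CYP2C18, a cytochrome P450 (0.992), and PPDPF (0.992). SERPIND1 gave 283 and 347 units for the day 1 arrays, 4409 and 5382 for those of day 2, 6998 and 7706 for day 3 and 6698 and 5007 for day 4. Like AFP it was lowest on both day 1 arrays and lower on day 4 replicate 2 than on replicate 1.

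Those most like GC were HAAO, an enzyme of tryptophan breakdown (r = 0.992), ASS1, an enzyme of arginine synthesis (0.992), FZD5, a Wnt receptor (0.992), SERPINA10, a coagulation inhibitor (0.991), and PTGDS, a prostaglandin D synthase and lipid carrier (0.990). PTGDS shared the wide day 4 gap, with 5964 units on replicate 1 and 1303 on replicate 2, and had 52 and 90.6 on day 1. Those most like ALB were AGMO, which cleaves ether lipids (0.983), MTSS1 (0.973), SEPTIN14 (0.965), ANKMY1 (0.964) and KLHL18 (0.959). AGMO lay at 31.4 and 16.1 units on day 4, and none of the 5 had a day 4 gap as wide as that of ALB. These lists were unstable: after quantile normalization 2 of the 5 genes for AFP, 1 for ALB and 1 for GC were still among the top 5.

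Transcription factors known in mammals to act on the albumin genes were read as a list. Of 18 such regulators on the array, 16 were tested. On day 2 against day 1 none rose or fell in limma, and after quantile normalization 1 rose (CEBPB); the median change was 0.12, against -0.42 over all probe sets. On day 3 CEBPA rose and POU2F1 fell, or after quantile normalization 3 rose (CEBPA, CEBPB and GATA6). On day 4 PROX1 and CEBPB rose and none fell, with a median of -0.06 against -0.55 over all. After quantile normalization 6 of the 16 rose on day 4, HNF4A, CEBPA, CEBPB, NR5A2, GATA6 and PROX1. Over all probe sets 1.61%, 5.29% and 3.43% rose on days 2, 3 and 4 as deposited, and 3.74%, 12.1% and 10.6% after quantile normalization. The shares that fell were 3.73%, 22.8% and 27.5% as deposited and 2.15%, 13.7% and 12.3% after quantile normalization. With no filter on low signals none rose on day 4 in limma.

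PROX1, a homeobox factor of liver development, gave 103 and 53.4 units on day 4 against 25 and 23.8 on day 1, an increase of 1.17 ± 0.36 on the log2 scale (SE, limma, adjusted p = 0.026). On days 2 and 3 it lay between 18.3 and 34.1 units. CEBPB, a leucine zipper factor of liver and acute-phase genes, gave 1609 and 2128 units on day 4 against 824 and 1178 on day 1 (0.90 ± 0.30, adjusted p = 0.037). HNF4A, a nuclear receptor of endoderm and liver, was high throughout, at 1979 and 2147 units on day 4 and 1338.5 and 1495 on day 1, and did not pass on the deposited values.

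Of 14 genes of vitamin D handling, the ligand system of GC, 4 rose on day 2 (CYP24A1, AMN, DAB2 and CALB1), 6 on day 3 and 5 on day 4 against day 1. On day 4, 3 others fell (CYP2R1, DHCR7 and PDIA3), but after quantile normalization 7, 10 and 8 rose on days 2, 3 and 4 and none fell. Over all probe sets 1.61%, 5.29% and 3.43% rose on days 2, 3 and 4, or 3.74%, 12.1% and 10.6% after quantile normalization. On day 4, 27.5% of all fell, or 12.3% after quantile normalization. The medians of the 14 genes were 0.49, 0.84 and 0.32 on days 2, 3 and 4, against -0.42, -0.43 and -0.55 over all probe sets. Without day 4 replicate 1, 2 rose on day 4.

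The receptor complex that takes up vitamin D binding protein and albumin in the mammalian kidney consists of LRP2, CUBN and AMN, with the adaptor DAB2. AMN, which carries CUBN to the cell surface, gave 2079 and 982 units on day 4 against 264 and 165 on day 1 (2.68 ± 0.39, limma, adjusted p = 0.00078). DAB2 gave 695 and 539 on day 4 against 66 and 149.5 on day 1 (2.43 ± 0.44, adjusted p = 0.002). LRP2 lay at 1386 and 1392 units on day 4, just above the higher of the 907.5 and 1385 of day 1, and did not pass as deposited but did after quantile normalization (0.88, limma, adjusted p = 0.016).

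CYP24A1, the enzyme that inactivates vitamin D hormone and a classical target of its receptor, gave 127 and 177 units for the day 1 arrays, 890 and 1132 for those of day 2, 1008 and 1409 for day 3 and 538 and 374 for day 4. It was highest on days 2 and 3 and still rose on day 4 against day 1 (1.48 ± 0.35, limma, adjusted p = 0.0076). RXRG, a partner of the vitamin D receptor, gave 264 and 253 units on day 4 against 82.6 and 111 on day 1 (1.29 ± 0.36, adjusted p = 0.017).

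Over all probe sets 1.61%, 5.29% and 3.43% rose on days 2, 3 and 4 against day 1, with medians of -0.42, -0.43 and -0.55. The shares after quantile normalization were 3.74%, 12.1% and 10.6%. Of 19 other serum carriers on the array, RBP4, AHSG and ORM1 were not tested, as their mean signals were under the limit. None of these exceeded 14.3 units on any array. The limit is on the mean over all 8 arrays, so a gene high only on later days could pass it. Of the 16 carriers tested, 10, 12 and 10 rose on days 2, 3 and 4 and none fell, with medians of 1.67, 1.90 and 1.54. After quantile normalization 13 rose on each day, and without day 1 replicate 2 only 4 rose on day 2. ITIH2, a heavy chain of the inter-alpha inhibitors, which bind hyaluronan, gave 3491 and 2401 units on day 4 against 82.4 and 81.8 on day 1, a change of 4.89 ± 0.31. APOA4, an apolipoprotein, rose by 3.82 ± 0.28, AGT, the precursor of angiotensin, by 3.84 ± 0.36, and TF, the iron carrier transferrin, by 1.62 ± 0.20. TTR, a carrier of thyroid hormone, gave 8891 and 9995 units on day 4 and 8945 and 9964 on day 1, with overlap. Of 10 erythroid markers tested, 6 rose on day 2 against day 1 (HBBR, HBE, HBZ, HBA1, HBAD and SLC4A1) and none fell. The same 6 rose on days 3 and 4, while TAL1, LMO2 and GFI1B fell on both days. After quantile normalization the 6 rose on each day, and TAL1 and LMO2 fell on days 3 and 4. Over all probe sets 22.8% and 27.5% fell on days 3 and 4, or 13.7% and 12.3% after quantile normalization. Over the 11 erythroid markers on the array the summed signal was between 13767 and 50408 on the arrays of days 2 to 4, and 5234 and 2833 on day 1. Their part in the change of AFP, ALB, GC and the other carriers was not tested.

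The 3 genes lie on chromosome 4 of the chicken, where RefSeq (assembly GRCg7b, used here for gene order only) places ALB and AFP side by side with no gene between them and GC 5 genes away from ALB. The genes in between are LOC100858497, NPFFR2, ADAMTS3, COX18 and ANKRD17. A list of genes presumed to lie around the locus was not taken from the RefSeq order. It holds RUFY3, MTHFD2L, EREG and PARM1, which were not among the neighbours read from that order. Of the list, 10 genes were tested. None rose or fell on day 2 against day 1, RASSF6 rose and COX18, ANKRD17 and DCK fell on day 3, and the same 3 fell on day 4, when none rose. These 3 of 10 stand beside the 27.5% of all probe sets that fell on day 4 and the 22.8% on day 3. The share of all that rose on day 3 was 5.29%. After quantile normalization 2 of the 10 rose (RASSF6 and EREG) on day 3 and again on day 4. COX18 and DCK then fell on day 3, and COX18 and ANKRD17 on day 4. Over all probe sets 12.1% and 10.6% rose on days 3 and 4 after quantile normalization, and 13.7% and 12.3% fell.

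COX18 and ANKRD17, the 2 genes next to ALB on the side of GC, fell on day 4 against day 1 by 2.50 ± 0.41 and 1.46 ± 0.33 on the log2 scale (SE, limma, adjusted p = 0.0013 and 0.0067). After quantile normalization they fell by 1.75 and 0.70. DCK, a deoxynucleoside kinase beyond GC, fell by 2.13 ± 0.53 (adjusted p = 0.0098), with adjusted p = 0.055 after quantile normalization. GRSF1, further out on that side and not in the list, fell by 0.98 ± 0.31 (adjusted p = 0.03), with adjusted p = 0.15 after quantile normalization. RASSF6, the neighbour of AFP on its other side, had a change of 0.86 ± 0.35 (adjusted p = 0.074) and passed after quantile normalization at 1.39 (adjusted p = 0.0068). SLC4A4, a bicarbonate transporter next to GC, had a change of 0.55 (adjusted p = 0.24).

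**Figure D4:**
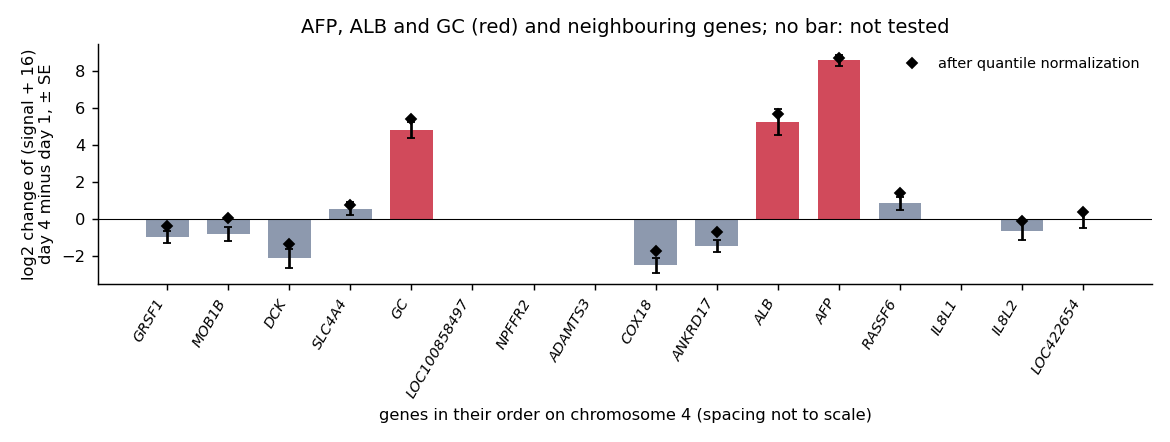
Change on the scale of log2(signal + 16) on day 4 against day 1, with its standard error, of the genes around GC, ALB and AFP in their order on the chromosome. Bars are deposited values, diamonds the same after quantile normalization, and genes with no bar were not tested. GC, ALB and AFP stand at 4.82, 5.26 and 8.57, while the bars of the neighbours tested lie between -2.50 and 0.86.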

How the data were processed

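The authors deposited a linear signal intensity per probe set for each of 8 arrays (Affymetrix Chicken Genome Array), made with MAS5 per the submitters' processing notes. Neither its version nor its scaling target is known here. Of 38535 probe sets 96 controls were set aside. Of the rest, 27168 had 1 gene symbol in the platform's annotation, 177 had several and 11094 had none. Probe sets with a mean signal above the 40th percentile (9.96) were tested, 23063 in all, including all 4 members.

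Signals were tested as log2(signal + 16) with limma 3.58.1 in R 4.3.3 (lmFit, eBayes with an intensity trend), all 8 arrays in 1 fit with a mean per day, 4 residual and 9.37 prior degrees of freedom, and Benjamini-Hochberg adjustment over all probe sets at 0.05. The design assumed arrays at a common level, which they were not; the deposited values were kept and quantile normalization was set beside them. The number of arrays limits the precision. The fit was also run on simulated arrays with independent noise. These had no level shifts between arrays and no arrays rich in mesoderm transcripts, so such features were not tested.

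Members and lists were chosen with earlier results of these data known, so counts over lists are descriptions. Of each list, up to 4 genes with the smallest adjusted p on day 4 against day 1 among those called were to be named. All members, their neighbours and, for each of the 3 genes, the 5 genes of highest Pearson r were to be named besides. HNF4A, LRP2, TTR, VDR and the other genes named in counts or as not tested were added after their values were seen. Each gene outside the family was read from its brightest probe set. Differences between members were tested by exact permutation, chosen after seeing the data. Alternatives covered scaling, pseudocounts of 1 and 64, filters, the intensity trend, the days in the fit, a replicate block and leaving out each array. Deposited detection calls were not used, and no sequences or coordinates are given.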

Additional observations from a re-analysis of the deposited data

How the results depend on the processing

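Against day 1, 198 of 204 alternative values for the 4 probe sets kept their direction and their side of the threshold, and 6 lost the call, all for ALB on day 2: 3.03 (adjusted p = 0.053) after quantile normalization, 1.84 (0.11) with a pseudocount of 64, 2.72 (0.12) with no filter on low signals, 2.72 (0.05) without the intensity trend, and a range of 2.45 to 2.99 when each array was left out, the call being lost without either day 1 array. The F statistic of ALB was 10.2 to 70.1 when arrays were left out, and without day 1 replicate 2 it no longer passed (12, adjusted p = 0.08). Among days 2 to 4, 193 of 204 values kept both, 4 passed the threshold and 7 changed sign. The change of GC on day 4 against day 3, -0.08, was 0.12 after quantile normalization and 0.08 with arrays shifted to the same median. With arrays left out in turn it ranged from -0.86 to 0.70, that of ALB from -1.26 to 1.66 and that of the _s_at probe set of AFP from -0.74 to 0.02. On day 3 against day 2 the ranges were 1.4 to 1.5 for that AFP probe set and 1.70 to 2.99 for ALB, with 0 to 2 of the 4 called; on day 4 against day 2 ALB ranged from 1.09 to 4.00, with 0 to 1 called. The cause of these shifts was not tested. The pseudocount set the size of the AFP change on day 4 against day 1, which was between 6.87 and 10.38 for the first and 6.65 and 12.04 for the second probe set. Counts over all probe sets moved more: 790 rose on day 4 against day 1 as deposited, 2446 after quantile normalization and 354 without day 4 replicate 1, and 6344 fell as deposited, 2833 after quantile normalization, 1198 without day 1 replicate 2 and 9692 without day 1 replicate 1. The share of rises among the calls was 30.1%, 18.8% and 11.1% on days 2, 3 and 4 as deposited, and 63.5%, 46.8% and 46.3% after quantile normalization. Without day 1 replicate 2, 171 rose on day 2, against 371 with all arrays. A further 40 genes were those picked by rule from the lists, by likeness or as tested neighbours, without HNF4A, LRP2, TTR or VDR. On day 4 against day 1, 631 of their 676 alternative values stayed on their side of the threshold, 41 lost and 4 gained the call. Genes called as deposited did not change sign. Sign changes of genes not called were not counted. One such gene, MOB1B, went from -0.80 as deposited to 0.03 after quantile normalization.

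Arrays share replicate numbers across days, but the labels tie no number to a batch, and the correlations of same-numbered deviations between days were between -0.14 and 0.39. With the replicate block no call of the 4 probe sets changed: ALB on day 2 against day 1 stayed at 2.72 (adjusted p = 0.038 with the block) and GC at 3.99 (0.00037).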

Other observations

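The genes that fold and move secreted proteins through the endoplasmic reticulum were read as a list. Of 21 tested, none rose on day 2, 3 or 4 against day 1, while 0, 3 and 10 fell on these days, with medians of -0.23, -0.27 and -0.76 on the log2 scale. Over all probe sets the medians were -0.42, -0.43 and -0.55, and 3.73%, 22.8% and 27.5% fell. HSPA5, the main chaperone of that compartment, fell by 1.09 ± 0.22 on day 4 (SE, limma, adjusted p = 0.0035), SEC61G, a subunit of the protein channel, by 1.09 ± 0.23, the chaperone HSP90B1 by 1.07 ± 0.24 and SSR1, a protein bound to the channel, by 0.99 ± 0.25. These counts depend on the scaling. After quantile normalization 5 fell and 2 rose on day 3, and 5 fell and 1 rose on day 4. Over all probe sets 13.7% and 12.3% then fell on days 3 and 4, and 12.1% and 10.6% rose. The medians of the list were then -0.14 and -0.25, against -0.01 over all on both days. With arrays shifted to the same median none fell on day 3 or 4, and 2 of 21 rose on day 4, where 3124 of all 23063 probe sets tested rose. The number of all that fell in that setting is not given.

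Among 14 genes of fatty acid binding and albumin uptake tested, 4 rose on day 4 against day 1 (FABP7, CUBN, AMN and DAB2) and 3 fell (FABP3, FABP5 and SPARC). After quantile normalization 8 of the 14 rose and 2 fell. Over all probe sets 3.43% rose and 27.5% fell on day 4, or 10.6% and 12.3% after quantile normalization. CUBN, AMN and DAB2 are also in the vitamin D list, and CUBN and AMN are also endoderm markers, so the counts of these lists are not independent. FABP7, a fatty acid binding protein known from brain, gave 6455 and 5757 units on day 4 against 891.5 and 1369 on day 1 (2.45 ± 0.25, limma, adjusted p = 8.8e-05). FABP5, a fatty acid binding protein known from skin, gave 7.96 and 4.32 units on day 4 against 92.2 and 180.5 on day 1, a decrease of 2.72 ± 0.36 (adjusted p = 0.00047). Both day 4 values of FABP5 lie under the signal limit used for testing.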
